A study of Mus musculus with 16 samples.

Results

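Obox1, Obox2, Obox3, Obox5, Obox6 and Sebox are 6 homeobox genes named for the oocyte or for the skin, embryo, brain and oocyte, and they were taken by symbol from the 25965 genes of the transcript table. Their levels were followed in growing oocytes of wild-type mice (C57BL/6 in the labels, C57BL/6Babr in the study's methods), sorted by diameter into classes that began at 10–30 μm, passed through 40–45 μm and then 50–55 μm and ended at 60–65 μm, with 2 libraries (A and B) each, and in fully grown germinal vesicle (GV) oocytes with 1 column of values. No group carried a transgene or a treatment, and a library was made from many pooled oocytes. Juvenile donors were older for the larger classes, with age ranges that overlapped between neighbouring classes, so that oocyte size and donor age cannot be told apart. DNA methylation came from reduced representation bisulphite sequencing (RRBS), in duplicate for each class but the smallest, and from 1 post-bisulphite adaptor tagging (PBAT) library at 60–65 μm.

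A homeobox encodes the homeodomain, a DNA-binding fold shared by many transcription factors that set cell fates. The Obox genes form a rodent cluster of tandem copies whose transcripts are found mainly in oocytes and early embryos, and Sebox encodes a separate homeodomain protein that oocytes store for the embryo. During oocyte growth the methylation of DNA is laid down anew, mostly across transcribed gene bodies, while start sites rich in CpG are spared.

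In the table, on GRCm38, Obox2 lay at chr7:15354037-15398545 and Obox1 at chr7:15512340-15556866, both on the plus strand. Obox3 spanned chr7:15479825-15639902 on the minus strand, with Obox1 inside that span on the opposite strand. Obox5 followed at chr7:15750134-15759800 on the plus strand and Obox6 at chr7:15833246-15839678 on the minus strand. Sebox lay apart from them at chr11:78503449-78505081 on the plus strand. A further copy, Obox7, was listed under its older name at chr7:14659708-14665995 and is given beside the members for comparison.

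Obox1, Obox2, Obox5 and Obox7 shared a stretch of sequence near their annotated starts nearly base for base, Obox3 held a more diverged form of it, and Obox6 was not compared. These stretches are shown because they are where the expressed and the barely detected copies can be set side by side. Each line holds 120 bases, 5′ to 3′, read from GRCm38 near the RefSeq start, and for the Obox genes the stretch is placed around the letters TATATAAGG, which Sebox lacks. Capitals mark the TATATAA letters in Obox1, the bases that differ from Obox1 in Obox5, Obox7 and Obox3, and a TTAAAA in Sebox.
Obox1, chr7:15547138-15547257, plus strand: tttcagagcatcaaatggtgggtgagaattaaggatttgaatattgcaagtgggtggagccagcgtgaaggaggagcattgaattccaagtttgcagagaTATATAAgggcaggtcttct
Obox5, chr7:15750239-15750358, plus strand: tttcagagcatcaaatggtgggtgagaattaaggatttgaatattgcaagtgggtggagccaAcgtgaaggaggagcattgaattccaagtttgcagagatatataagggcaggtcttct
Obox7, chr7:14659603-14659722, plus strand: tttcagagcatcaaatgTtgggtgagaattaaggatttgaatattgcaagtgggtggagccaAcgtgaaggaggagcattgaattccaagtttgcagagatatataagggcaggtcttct
Obox3, chr7:15639788-15639907, minus strand: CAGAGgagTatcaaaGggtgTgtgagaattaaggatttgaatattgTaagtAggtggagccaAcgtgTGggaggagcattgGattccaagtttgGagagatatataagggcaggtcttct
Sebox, chr11:78503413-78503532, plus strand: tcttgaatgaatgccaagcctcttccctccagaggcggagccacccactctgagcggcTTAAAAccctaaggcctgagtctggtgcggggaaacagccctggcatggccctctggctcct

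The 120 bases of Obox2, at chr7:15388829-15388948 on the plus strand, had 0 differences from Obox1, and the 100 bases before them were identical as well. Obox5 differed from Obox1 at 1 of the 120 bases and Obox7 at 2. Obox3 differed at 15, and once aligned, 43 of the 100 bases before that stretch were identical to those of Obox1, against 94 for Obox5 and 94 for Obox7. TATATAAGG began 19 bases before the RefSeq start of Obox1, 31 before that of Obox5, 30 before that of Obox3 and 5 before that of Obox7, whereas in Obox2 it lay 78 bases after the annotated start. On either strand of the windows from 250 bases before to 50 bases after the RefSeq starts of 32851 genes, 0.307% held these letters.

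Motifs of oocyte regulators were also searched on both strands of those windows in Obox1, Obox2, Obox3, Obox5, Obox7 and Sebox, since Obox6 had no window in the table of promoters used. The letters TAATTA, bound by the homeodomain factor NOBOX, were in none of the 6, whereas 5.29% of all windows held them. The variant TAATTG of that site was likewise in none, against 8.0% of all windows. The letters TGATTG, bound by LHX8, were in none, against 14.0%. The E-box CANNTG, bound by basic helix-loop-helix factors, occurred in Obox1 at positions -108 and -73 from the start, in Obox5 at -120 and -85, and in Obox7 at -94 and -59. Measured from TATATAAGG these are the same pair of positions in all 3 genes. The window of Obox2, whose annotated start lies farther upstream, held 4 such sites, and those of Obox3 and Sebox held none, against 72.3% of all windows with at least 1. Obox3 alone of the 6 had GGATTA, bound by bicoid-type homeodomains and found in 7.06% of all windows, and alone had TATAAA, found in 13.6%. A match or its absence describes only these letters. The TTAAAA of Sebox began 42 bases before its start, and 19.2% of all windows held one; those of Obox1, Obox3, Obox5 and Obox7 also did, nearer to or past their starts.

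The similarity extended through the transcripts. The RefSeq coding sequence of Obox2, with 456 bases, differed from that of Obox1 at 7 aligned bases, an identity of 98.5%. Obox5 was 95.4% identical to Obox1, Obox7 93.7% and Obox3 93.8%. Obox6 was the most distant copy, at 77.9%, and Sebox aligned with Obox1 at 60.3%. Of all stretches of 100 bases in the annotated exons, 51.2% of those of Obox1, 48.3% of those of Obox2 and 36.1% of those of Obox3 occurred at least once more in the genome, compared with 2.20% for Obox5, 3.23% for Obox7 and none for Obox6 and Sebox. The reads were paired 100-base reads and the aligner kept 1 alignment per read, so that reads of the shared stretches could be placed on either copy. The division of reads between Obox1 and Obox2 and the placing of reads on Obox3 are therefore uncertain. By stretches of 100 bases, that touches Obox5 little and Sebox not at all. Of stretches of 50 bases, 18.5% of those of Obox5 and none of those of Sebox recurred, against 69.5% for Obox1 and 66.4% for Obox2.

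The deposited transcript values are RPKM, in which the reads of a gene are scaled by transcript length and library size. The values of a gene were whole multiples of a library's smallest step. The step was worth most in 10–30 μm library A, at 1.82 times that of 60–65 μm library B, and least in GV oocytes, at 0.912 times, so that the depth differed by that much between libraries. All 10 oocyte markers, among them Gdf9 and Zp3, were detected in every library, and their RPKM summed to between 2687 in GV oocytes and 3767 in 40–45 μm library B. The 10 granulosa markers summed to 2.08 and 2.5 RPKM at 10–30 μm, 7.76 and 7.19 at 60–65 μm and 9.65 in GV oocytes. Of the 10, only Inha, Nr5a2 and Cyp19a1 passed the filter on low values, and all 3 were higher at 60–65 than at 10–30 μm, a comparison in which 31.5% of tested genes were higher and 31.8% lower. Among those under the filter, Fshr measured 0.0436 and 0.0545 RPKM at 10–30 μm, 0.238 and 0.229 at 60–65 μm and 0.286 in GV oocytes, and Kitl 0.192 and 0.14, 0.495 and 0.409, and 0.907. Foxl2 ranged from 0.0145 to 0.0642 RPKM over all columns. The 8 theca and stroma markers summed to between 0.441 and 2.77 RPKM over the libraries, with the only tested genes, Col1a1 and Col1a2, lower at 60–65 than at 10–30 μm. Untested theca genes of the list had higher values at 60–65 μm, with Cyp11a1 at 0 and 0.0106 RPKM at 10–30 μm and 0.075 and 0.14 at 60–65 μm, and Star at 0.0217 and 0.0384, then 0.0648 and 0.107. The 6 blood and vessel markers found summed to between 0.853 and 6.07 RPKM, of which Pecam1 made 0.531 to 5.68 and rose with growth. The part of these markers in the changes of the members was not tested. RPKM gives the share of a gene in its library, and the study states that mRNA content increases substantially as oocytes grow. Amounts per oocyte were therefore not measured, and a lower RPKM need not mean less transcript per cell. In pooled oocytes, fewer cells carrying a transcript and less of it per cell also cannot be told apart.

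Obox2, a homeobox copy of the cluster, was the most abundant member from 40–45 μm on. It measured 16.8 and 19.7 RPKM at 10–30 μm, 88.6 and 63.5 at 40–45 μm, 161 and 129 at 50–55 μm, 189 and 183 at 60–65 μm, and 220.0 in GV oocytes. Each class lay above the one before it with no overlap of libraries, as it did at all 3 steps for 12.7% of the 10518 genes later tested. Step by step, both libraries of the larger class lay above both of the smaller for 22.4%, 33% and 32% of those genes. By level it ranked 976th of 25965 genes in 10–30 μm library A and 30th in GV oocytes.

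Obox1, the copy nearest in sequence to Obox2, also rose from class to class, at lower levels. Its RPKM were 11.6 and 13.4 at 10–30 μm, 44.0 and 36.9 at 40–45 μm, 77.8 and 64.8 at 50–55 μm, 93.8 and 94.8 at 60–65 μm, and 109.6 in GV oocytes. Here too the libraries of neighbouring classes did not overlap. Because the exons of Obox1 and Obox2 share reads, their RPKM were also added. The sum averaged 30.8 ± 3.28 RPKM at 10–30 μm and 281 ± 3.56 at 60–65 μm (SD, n = 2), a 9.12-fold rise. RPKM divides by a length that differs between the pair, and some stretches may recur in other copies, so that the sum is not free of how reads were divided.

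Obox5, whose exons are nearly free of long repeated stretches, began level with Obox2 and ended well below it. It gave 16.9 and 15.7 RPKM at 10–30 μm, 44.4 and 34.4 at 40–45 μm, 66.9 and 57.3 at 50–55 μm, 72.4 and 75.3 at 60–65 μm, and 88.7 in GV oocytes. The libraries of neighbouring classes were again separate.

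Sebox, on another chromosome and of a different homeodomain family, rose alongside them from lower levels. Its values were 2.47 and 2.48 RPKM at 10–30 μm, 7.96 and 6.46 at 40–45 μm, 13.9 and 12 at 50–55 μm, 17.7 and 16.9 at 60–65 μm, and 20.6 in GV oocytes. No class overlapped its neighbour. In both the 40–45 and the 50–55 μm classes library A exceeded library B for Sebox, Obox1, Obox2 and Obox5, so that the 2 libraries of a class deviated together across these members.

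Obox7, not listed among the members, measured 2.06 and 1.98 RPKM at 10–30 μm, 16.3 and 16.7 at 60–65 μm and 22.3 in GV oocytes, which were levels close to those of Sebox.

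**Figure D1:**
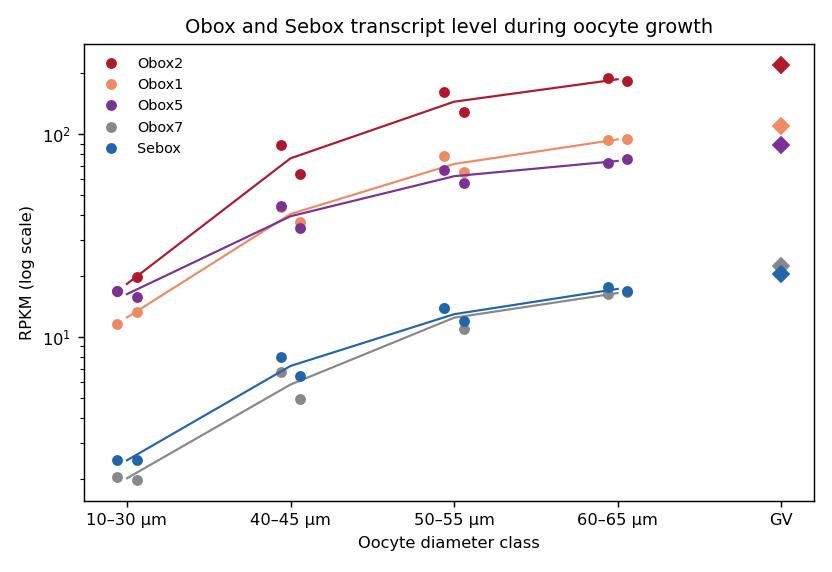
RPKM (log scale) of Obox2, Obox1, Obox5, Obox7 and Sebox in 4 oocyte diameter classes and in GV oocytes. Circles are single libraries (2 per class), lines join class means and diamonds mark the single GV column; the rise from 10–30 to 40–45 μm is the steepest for each gene, and Obox2 lies above the others from 40–45 μm on.

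Obox3 and Obox6 were the exceptions, and neither reached 0.5 RPKM in any library. Obox3 was listed at 0 in 5 of the 6 libraries up to 50–55 μm, and 50–55 μm library B had 0.00249 RPKM. It gave 0.0110 and 0.0128 RPKM at 60–65 μm and 0.0389 in GV oocytes. These values are whole multiples of a step and correspond to 1 counted alignment in 50–55 μm library B, 3 and 6 at 60–65 μm and 20 in GV oocytes. Of the 100-base stretches in its exons 36.1% occur elsewhere, and whether reads of other copies are among these counts was not tested. In the libraries at 0, a limit of 3 counts would correspond to between 0.00605 and 0.0116 RPKM. Library A at 60–65 μm lay within that range, and library B and GV oocytes above it.

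Obox6 was listed at 0 in 7 of the 8 libraries of growing oocytes. It had 0.0165 RPKM, or 4 counts, in 60–65 μm library B and 0.0113 RPKM, or 3 counts, in GV oocytes. A difference between classes was not detectable at this depth, since 3 counts in the libraries at 0 would correspond to between 0.0117 and 0.0225 RPKM. Obox3 has TATATAAGG before its start as Obox1 and Obox5 do, and at 60–65 μm its RPKM stood at 0.0119 ± 0.00126 beside 94.3 ± 0.675 for Obox1 and 73.8 ± 2.0 for Obox5 (SD, n = 2).

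To ask when during growth the members changed, neighbouring classes were compared with limma on log2(RPKM + 0.1). Obox1, Obox2, Obox5 and Sebox reached 0.5 RPKM in 2 or more of the 8 libraries, as did 10518 genes in all, and Obox3 and Obox6 did not enter the test. Fold differences on this scale are understated for low genes. The labels do not say that the 2 libraries of a class came from separate animals, so that the p-values measure the spread between these libraries only.

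Between 10–30 and 40–45 μm, all 4 tested members were higher in the larger oocytes, where 13.2% of tested genes were called higher and 23% called in either direction. Obox2 rose by 2.10 ± 0.18 on the log2 scale (estimate ± SE, adjusted p = 0.000664), the 15th largest rise of 10518 genes. Obox1 rose by 1.75 ± 0.13 (adjusted p = 0.000524) and Sebox by 1.57 ± 0.13 (adjusted p = 0.000664). Obox5 rose least, by 1.33 ± 0.15 (adjusted p = 0.0013). In RPKM the class means differed 4.16-fold for Obox2, 3.24-fold for Obox1, 2.92-fold for Sebox and 2.42-fold for Obox5.

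Between 40–45 and 50–55 μm the 4 members were again called higher, in a comparison where 5.27% of tested genes were called higher, 3.45% lower and 8.72% either way. Obox2 gained 0.90 ± 0.18 on the log2 scale (adjusted p = 0.0233) and Sebox 0.80 ± 0.13 (adjusted p = 0.0169). Obox1 gained 0.78 ± 0.13 (adjusted p = 0.0176) and Obox5 0.62 ± 0.15 (adjusted p = 0.0444). These calls were not stable. With all libraries and no filter on low values the adjusted p ranged from 0.102 to 0.186 over the 4 members. Without 40–45 μm library B it ranged from 0.0966 to 0.194, and without 50–55 μm library A from 0.155 to 0.272. Obox5 was also not called without 50–55 μm B, 60–65 μm A or 60–65 μm B, or in a fit of the 4 libraries compared (adjusted p from 0.0638 to 0.0908). The direction held in each case, with log2 differences of at least 0.41.

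Between 50–55 and 60–65 μm no member was called, and neither was any other gene (0%), although 1440 of 10518 genes had an unadjusted limma p under 0.05; limma without the trend called 0 as well. Other settings did call genes, 240 with the library letter as a block, 8 with a pseudocount of 1 and 2 without the filter, but none of the members. The log2 differences were 0.39 for Sebox (unadjusted p = 0.019, adjusted p = 0.265), 0.38 for Obox1 (0.021 and 0.272), 0.35 for Obox2 (0.0889 and 0.446) and 0.22 for Obox5 (0.181 and 0.574). In each of the 4 genes both 60–65 μm libraries lay above both 50–55 μm libraries, which held for 32% of all tested genes.

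Over the whole span from 10–30 to 60–65 μm, a comparison that shares its libraries with the steps above, 31.5% of tested genes were called higher and 31.8% lower, 63.3% in all. Obox2 was 10.2-fold higher by class means, with a log2 difference of 3.35 ± 0.18 (adjusted p = 6.61e-06). Obox1 was 7.54-fold higher (2.91 ± 0.13, adjusted p = 5.84e-06) and Sebox 7.0-fold (2.76 ± 0.13, adjusted p = 5.84e-06). Obox5 was 4.53-fold higher (2.18 ± 0.15, adjusted p = 1.41e-05). By size of the rise Obox2 ranked 44th of 10518 genes and Obox1 91st, with Sebox at 122 and Obox5 at 270.

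**Figure D2:**
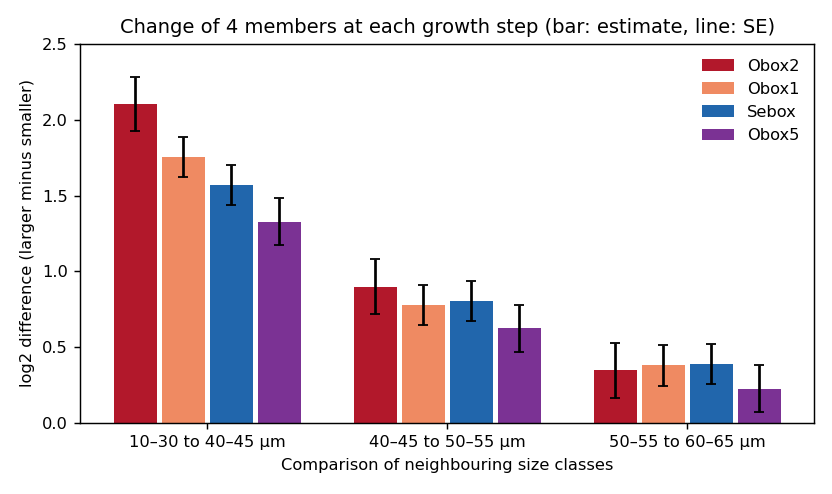
Log2 difference in RPKM + 0.1 (larger minus smaller class) for Obox2, Obox1, Sebox and Obox5 at 3 successive steps of growth; bars are limma estimates and lines their SE. The bars shorten from 1.33 to 2.10 at the step to 40–45 μm to 0.22 to 0.39 at the step to 60–65 μm.

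The members did not rise by the same factor. The ratio of Obox2 to Obox5 was 0.997 and 1.26 in the 10–30 μm libraries, 2.0 and 1.85 at 40–45 μm, 2.40 and 2.24 at 50–55 μm, 2.62 and 2.44 at 60–65 μm, and 2.48 in GV oocytes. The lowest ratio at 40–45 μm exceeded the highest at 10–30 μm, and the ranges at 50–55 and 60–65 μm did not overlap. The ratio of Obox2 to Obox1 went from 1.45 and 1.48 at 10–30 μm to 2.02 and 1.72 at 40–45 μm and then stayed between 1.94 and 2.06. No test was run on these ratios. The 5 Obox members summed to 45.4 and 48.8 RPKM in the smallest class and to 356 and 354 in the 60–65 μm class. Of this sum the share of Obox2 grew from 38.8% ± 2.34 to 52.6% ± 0.965 and that of Obox5 shrank from 34.7% ± 3.60 to 20.8% ± 0.654 (SD, n = 2). Obox1 kept 26.5% ± 1.26 and 26.6% ± 0.307 of the sum. The summed Obox RPKM was 18.4 to 22.2 times that of Sebox in every library.

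**Figure D3:**
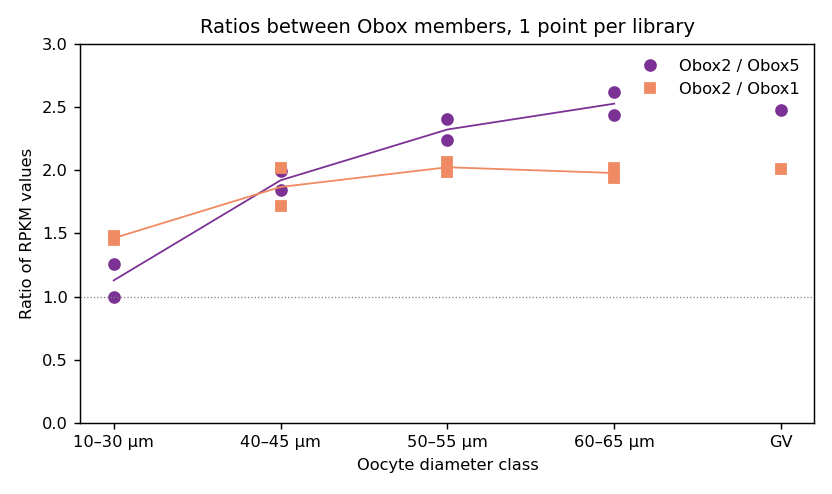
Ratio of RPKM values of Obox2 to Obox5 and of Obox2 to Obox1, 1 point per library, by oocyte diameter class, with lines through class means and a dotted line at 1. Obox2 over Obox5 goes from 0.997 and 1.26 at 10–30 μm to 2.62 and 2.44 at 60–65 μm, while Obox2 over Obox1 stays near 2 from 50–55 μm on.

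GV oocytes had 1 column of values, and no test was run on them. Obox2 stood 0.24 above the mean of the 60–65 μm libraries on the log2(RPKM + 0.1) scale, Obox1 0.22, Obox5 0.27 and Sebox 0.25. The gap between the 60–65 μm libraries A and B was at most 0.067 for these 4 genes. Over all 10518 tested genes the median of the same difference was -0.03, and 15.6% of genes exceeded 0.2.

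The profiles of the 4 abundant members resembled each other, with Pearson r of log2(RPKM + 0.1) from 0.996 to 0.999 over the 9 columns, which share libraries and scaling. The genes most like Obox1 were Trpc4, a cation channel gene (r = 0.9991), Ctsh, a lysosomal protease gene (0.9988), and Mest, an imprinted gene (0.9981). For Obox2 they were Ctsh (0.9987), Gm13084 (0.9987) and Trpc4 (0.9984). The closest to Obox5 were Nlrp9c (0.9991), Gm13023 (0.9986) and Rfpl4 (0.9982), the last named known as an oocyte ubiquitin ligase gene. Those closest to Sebox were Gm13023 (0.9993), E330021D16Rik (0.9992) and Usp29 (0.9991). At the looser limit of 0.95, 863 of 10514 other tested genes (8.21%) had a higher r with Obox1 and 914 (8.69%) with Sebox. How many came near the r of the named genes was not counted. The profiles of Obox3 and Obox6 rest on at most 20 counts and are not compared.

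Most other homeobox genes of the paired-like (PRD) class, to which the Obox genes are related, were barely detected. Of 54 names searched, 50 genes were in the table and 42 stayed under 0.5 RPKM in all 9 columns. By the filter of 0.5 RPKM in 2 of 8 libraries, 7 of the 50 passed, against 10518 of all 25965 genes. Among the 7 tested, 4 were called higher and 1 lower between 10–30 and 40–45 μm, where 13.2% of all tested genes were higher and 9.76% lower. The 4 were Gsc and the near-identical copies Duxbl1, Duxbl2 and Duxbl3, between which the division of reads is uncertain. Gsc, the highest of them, moved from 1.74 and 2.08 RPKM to 3.63 and 3.95 at 60–65 μm, where Obox1, Obox2 and Obox5 had 72.4 to 189 RPKM. Rhox1, of the X-linked reproductive homeobox cluster, fell from 3.69 and 4.08 to 0.560 and 0.733 RPKM (log2 difference -2.42, adjusted p = 0.000118). Crxos, next to the Obox cluster, was listed at 0 in all 9 columns.

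Transcription regulators of the oocyte were called lower or not called. Of 7 regulators, all tested, 0 were called higher and 4 lower between 10–30 and 40–45 μm, where 9.76% of tested genes were called lower. Sohlh1, a helix-loop-helix factor of early oocytes, fell from 49.6 and 45.0 to 1.17 and 1.74 RPKM over the whole span (log2 difference -4.95, adjusted p = 5.84e-06). Figla, which activates zona pellucida genes, fell from 52.7 and 45.0 to 11.6 and 12.6 RPKM, and Sohlh2 and Tbpl2 were the other 2 that fell. Nobox, a homeobox factor of oocytes, measured 56.0 and 58.3 RPKM at 10–30 μm and 59.5 and 59.2 at 60–65 μm (log2 difference 0.06, adjusted p = 0.672). Lhx8 gave 16.9 and 18.1 RPKM at first and 17.5 and 15 at 60–65 μm (log2 difference -0.11, adjusted p = 0.366).

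Genes lying near the members were counted in the same comparisons, where 23% of all tested genes were called from 10–30 to 40–45 μm and 63.3% from 10–30 to 60–65 μm. Within 200 kb of the Obox members the table held 6 other genes, of which 2 were tested. From 10–30 to 60–65 μm, Sepw1, for a selenoprotein, was not called, as it measured 15.1 and 20.9 RPKM at 10–30 μm and 15.1 and 13.8 at 60–65 μm (adjusted p = 0.179), and Gltscr2 fell from 8.83 and 9.77 to 5.08 and 5.07 (adjusted p = 9.6e-05). Gltscr2 was also lower at 40–45 than at 10–30 μm (log2 difference -0.42, adjusted p = 0.0154). Within 200 kb of Sebox there were 17 other genes, 10 of them tested. None was called between 10–30 and 40–45 μm, and over the whole span Spag5 was called higher (log2 difference 0.67) and Ift20 and Tmem97 lower (-0.56 and -0.41). Vtn, which ends just before Sebox on the same strand, stayed between 0.00496 and 0.0497 RPKM, far below Sebox.

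The methylation of the Obox cluster at 60–65 μm was read from the PBAT library, counting each CpG cytosine with at least 5 reads. From the start of Obox2 to the end of Obox6, chr7:15354037-15839678, 986 of 6820 CpG cytosines met this minimum, and their mean methylation was 32.7%. The pooled calls, 2719 methylated of 8042, gave 33.8% with a 95% Wilson interval of 32.8 to 34.9%. Intervals cover counting error only and there was 1 library. The 50 kb before the cluster had 18.0% (pooled interval 15.6 to 20.1%) and the 50 kb after it 9.17% (6.50 to 10.9%), beside 22.2% over all such cytosines of chromosomes 1 to 19 and X. The cluster was therefore more methylated than both its sides in this library.

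The methylation was uneven along the cluster. Of 48 windows of 10 kb inside it, 39 had at least 5 cytosines measured, and they ranged from 1.54 to 73.0% with a median of 24.5%. Of these, 20 lay under 25% and 5 at or over 50%. Over 207283 windows of the genome the median was 13.5%, 67.3% of them lay below the median of the cluster, and 15.4% were at or over 50%, against 12.8% inside the cluster. The highest of the measured windows, at 72.9 and 73.0%, began 50 and 410 kb from the start of Obox2, just past the ends of Obox2 and Obox5.

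**Figure D4:**
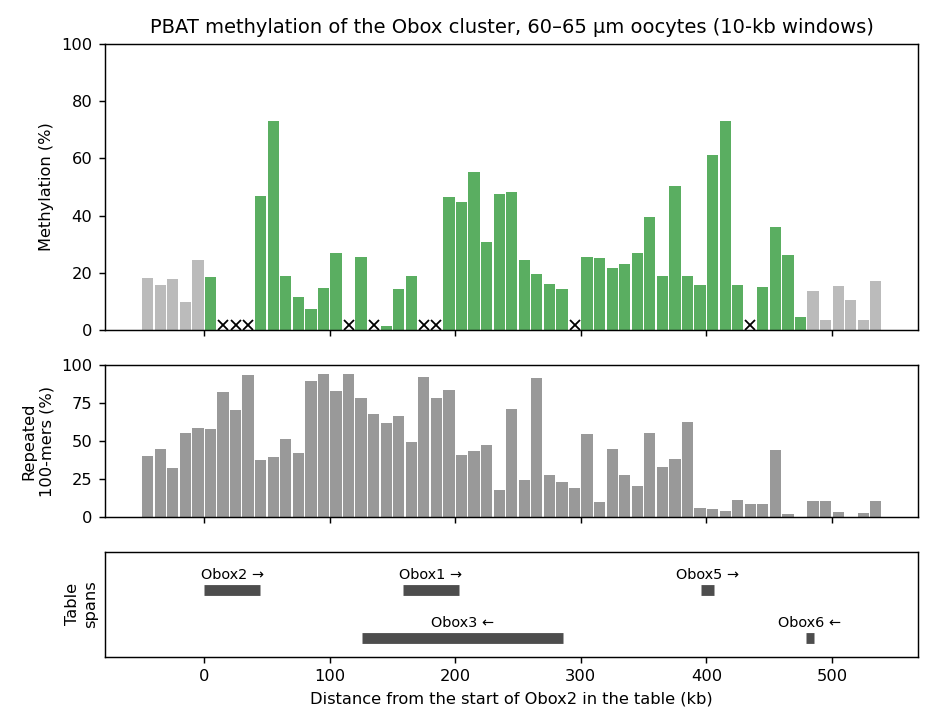
Top, mean PBAT methylation (%) of 10-kb windows across the Obox cluster (green, windows wholly inside it) and around it (grey, up to 50 kb to either side, including the window at 480 kb that straddles the end of the cluster and holds Obox6) in 60–65 μm oocytes, with crosses for windows under 5 measured cytosines; middle, share (%) of 100-base stretches in each window that occur elsewhere in the genome; bottom, spans of the members in the table, arrows giving the strand. Distance is from the start of Obox2 in kb; methylation ranges from 1.54 to 73.0% inside the cluster, and the 9 windows without a value hold a median of 78.2% repeated stretches.

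Over gene bodies as the table spans them, Obox2 had 24.7% (40 cytosines), Obox1 34.3% (26), Obox3 32.5% (236) and Obox5 33.9% (13). Obox6 had 13.9% over 23 cytosines and Sebox 5.24% over 7. Among 1871 genes of at least 10 RPKM at 60–65 μm the median body was 25.5% methylated with quartiles of 12.6 and 37.9%, and among 10073 genes under 0.1 RPKM it was 7.49% with quartiles of 5.08 and 13.8%. Over their table spans Obox1, Obox2 and Obox5 lay between the quartiles of the abundant genes, although Obox5 had 38.4% from pooled calls and 41.7% with strands summed. Body methylation differed with gene length, and the 768 abundant genes under 15 kb had quartiles of 6.31 and 25.7%. Obox5, which spans 9667 bases, lay above the latter. Obox6 was near the upper quartile of the low genes, and had 8.61% when cytosines of 1 read were counted and 12% at 3 reads. Sebox, which spans 1633 bases, was below the lower quartile of abundant genes and within the quartiles of the 154 abundant genes under 3 kb, 3.52 and 12%, and it had 1.59% at 1 read. The table span of Obox3 contains Obox1. Over the RefSeq span of Obox3 alone, 15 cytosines had 15.8%, and over the shorter RefSeq spans of Obox1 and Obox2, 18 and 17 cytosines had 43.3% and 34.3%, both above the upper quartile of abundant genes under 15 kb, and the first also above that of all abundant genes.

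Start sites could be read for Obox5, Obox7 and Sebox only. Within 1 kb of the start in the table, Obox5 had 19.4% over 8 cytosines (9 methylated of 53 calls, Wilson interval 9.20 to 29.2%). Obox7 had 8.49% over 12 (6 of 72 calls, 3.88 to 17.0%) and Sebox 4.63% over 11 (3 of 74 calls, 1.39 to 11.3%). Within 500 bases of the RefSeq start of Obox5, 0 cytosines had 5 reads. The median start of the genes of at least 10 RPKM had 3.49%, with quartiles of 2.35 and 5.12%. By their means Obox5 and Obox7 lay above them, but the interval of Obox7 includes the upper quartile. The quartiles were not matched for CpG content, and the windows of Obox5 and Obox7 held 34 and 30 CpG cytosines. Sebox lay inside the quartiles with the start in the table and above them with the RefSeq start, at 5.66% over 9 cytosines. There 3 of 64 calls were methylated, 4.69% when pooled, and the interval of 1.61 to 12.9% includes both quartiles. Counting cytosines of 1 read, Obox5 had 12.5%, Obox7 14.3% and Sebox 1.81%, while the quartiles rest on 5 reads. At the RefSeq start of Obox1, 0 of 30 CpG cytosines within 1 kb had a read and at that of Obox2 1 of 36, compared with 28 of 30 at Obox5 and 69.0% over the genome. All stretches of 100 bases at these starts of Obox1 and Obox2 occurred more than once in the genome, against 1.90% at Obox5. Inside the cluster, repeated stretches made a median of 78.2% of the 9 windows without a value and 42.1% of the 39 with one. The part of repeated sequence in this lack of reads was not tested. At the start of Obox3, 2 of 6 calls were methylated, and at that of Obox6 6 of 44, too few for a statement.

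RRBS gave the only methylation values for the smaller oocytes. It covered 19 to 30 CpG cytosines of the cluster with at least 5 reads per library and none within the table spans of Obox1, Obox2 and Obox5. At the 12 cytosines covered in all 6 libraries, the mean of the 40–45 μm libraries was 32.9 and 28.5%. It was 36.2 and 40.7% in the 50–55 μm class and 48.5 and 50.7% in the 60–65 μm class. At these cytosines the classes did not overlap. Over all the cluster cytosines that each library covered, the means were 26.1 and 28.6%, then 29.3 and 36.4%, and then 33.5 and 35.4%, so that the larger classes overlapped there and the gain was smaller. Over all 448518 cytosines covered in the 6 libraries the means were 2.49 and 2.40%, 4.45 and 5.61%, and 7.46 and 7.62%. Already at 40–45 μm, 8 of the 12 were at 20% or more in both libraries, against 1.89% of all covered cytosines.

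Those 8 lay in repeats. Of the 12 cytosines, the 8 in soft-masked sequence, which the reference marks as repeats, were all at 20% or more in both 40–45 μm libraries, and the 4 outside it were not. Genome-wide, 19.1% of 29026 soft-masked cytosines and 0.699% of 419492 others reached 20% in both. Both 60–65 μm libraries lay above both 40–45 μm libraries at 8 of the 12, against 16.1% of all covered cytosines. That share was not split by repeats, and most covered cytosines lay outside them. The 8 that gained fell in 4 places, since 4 of them lay together at 377.2 kb from the start of Obox2 and 2 at 450.3 kb. At 411.4 kb, past the end of Obox5, methylation went from 36.9 and 20.8% to 59.6 and 66.4% and then 94.4 and 91.6%. The cytosine at 222.2 kb, inside the span of Obox3, had 51.7% in 60–65 μm library A and 6.67% in library B, and its libraries thus differed widely within that class.

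**Figure D5:**
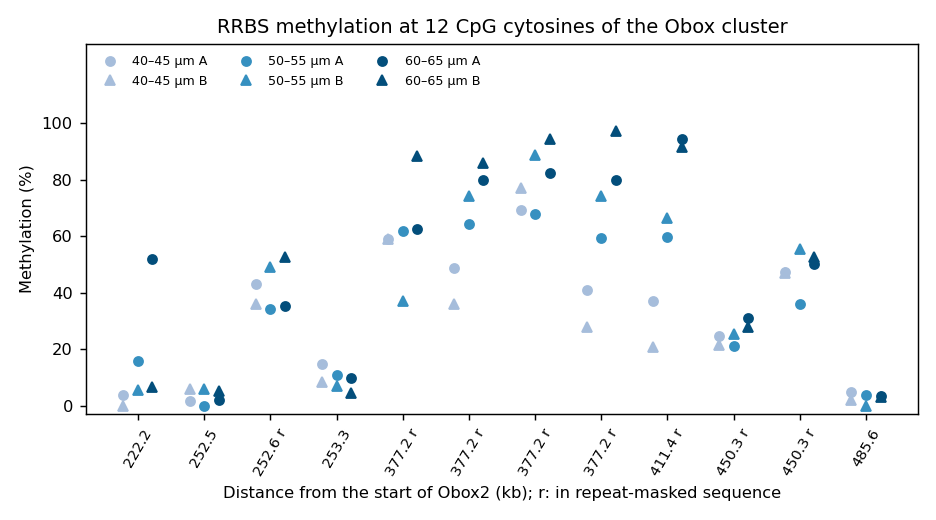
RRBS methylation (%) of 12 CpG cytosines of the Obox cluster covered by at least 5 reads in all 6 libraries, ordered by distance from the start of Obox2 (kb); circles are libraries A and triangles libraries B, darker blue for larger oocytes, and r marks repeat-masked sequence. The 8 marked r are at 20% or more in both 40–45 μm libraries, while the other 4 are lower.

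Near the member starts RRBS read single cytosines. The cytosine just inside the start of Obox6 had 4.82 and 2.01% in the 40–45 μm libraries on 83 and 149 calls. It had 3.85 and 0% in the 50–55 μm class and 3.28 and 2.94% in the 60–65 μm class, where calls ranged from 6 to 61. Within 2 kb of Sebox, 3 cytosines averaged 3.08 and 0% at 40–45 μm and 1.19 and 6.67% at 60–65 μm. That is fewer cytosines than the 5 asked of a region, and with cytosines of 1 read counted the 60–65 μm libraries had 30.7 and 24.0%, so that no level is read from them. At 50–55 μm library A gave 0% over 3 cytosines, and library B 22.2% over the 1 it covered, with 18 calls.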

How the data were processed

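The members were taken by symbol from the transcript table. Members, lists and motifs were chosen with earlier results of these data known, and the study that made the libraries had singled out some of these genes in them. Sequences are from RefSeq on GRCm38, and the protein sequences were not used here.

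The authors trimmed RNA reads with Trim Galore and aligned strand-specific 100-base pairs to GRCm38 with TopHat, keeping 1 alignment per read, and deposited RPKM per gene. The study's methods name Cufflinks for transcript levels and SeqMonk for analysis, and do not say which tool made this table. For methylation they ran Bismark and deposited, per CpG cytosine, the percent methylated and the counts of methylated and unmethylated calls, from which the percent follows. Versions named in the submitters' processing notes are Trim Galore 0.3.5 and 0.2.8, Bismark 0.14.0 and 0.10.0 and TopHat2 2.0.9.

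RPKM were scaled by trimmed means, and log2(RPKM + 0.1) of genes of at least 0.5 RPKM in 2 of 8 libraries was fitted in all 4 classes together with limma 3.58.1 (R 4.3.3, trend, Benjamini-Hochberg, threshold 0.05), after testing on simulated data. GV, PBAT and RRBS values had no test. Counts of Obox3 and Obox6 were recovered from the steps of their RPKM (within 0.15 of a whole number). CpG cytosines needed 5 reads and regions 5 such cytosines. Repeated stretches were exact matches on either strand, and coding sequences were aligned with Biopython 1.88. For each member the 3 tested genes of highest r over 9 columns were named. TATATAAGG and TTAAAA were chosen after the sequences were seen. Alternatives were other pseudocounts, filters, scalings and coverage minimums, pooled calls, summed strands, other windows, a replicate block and leaving out each library.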

Additional observations from a re-analysis of the deposited data

How the results depend on the processing

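The rises of Obox1, Obox2, Obox5 and Sebox from 10–30 to 40–45 μm and from 10–30 to 60–65 μm kept direction and call in all 17 alternatives each. From 40–45 to 50–55 μm, 16 of 68 alternatives lost the call, none the direction. With no filter on low values the adjusted p were 0.109, 0.154, 0.186 and 0.102 for Obox1, Obox2, Obox5 and Sebox. Obox5 was also not called in a fit of the 4 libraries compared (0.0638) and without 50–55 μm B, 60–65 μm A or 60–65 μm B (0.0816 to 0.0908). With no filter Obox3 passed from 10–30 to 60–65 μm (log2 difference 0.16, adjusted p = 0.00269), on 3 and 6 counts whose placing is uncertain. From 50–55 to 60–65 μm no alternative called a member.

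Counts of called genes moved more. Leaving out a library gave 859 (without 40–45 μm A) to 3076 calls from 10–30 to 40–45 μm, with 1371 without 10–30 μm A, and 0 (without 40–45 μm B or 50–55 μm A) to 1672 (without 10–30 μm A) from 40–45 to 50–55 μm, against 2415 and 917. The last count was 1657 without 10–30 μm B, 543 without 40–45 μm A, 255 without 50–55 μm B and 505 and 509 without 60–65 μm A and B. The 4 libraries alone gave 1108 for the first step. No filter gave 0 for the second and 2 for the last step, and a pseudocount of 1 gave 8 for the last. Without scaling, 1088 of 2609 calls of the first step were higher, against 1388 of 2415.

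The letters A and B were not taken as pairs. Deviations of same-letter libraries correlated from 0.589 to 0.669 among the 10–30, 40–45 and 50–55 μm classes, but at -0.227, -0.0256 and 0.113 with the 60–65 μm class, and the labels name no shared source. With the letter as a replicate block 1877 and 240 genes were called at the second and last steps, and no call of a member changed.

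The summed Obox RPKM rose by 2.86 to 2.97 on the log2 scale from 10–30 to 60–65 μm whichever library was left out, against 2.91.

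The PBAT mean of the cluster was 29.4% at 1 read, 31.7% at 3 reads and 31.2% with strands summed, against 32.7%. The RRBS mean of the cluster over all its covered cytosines, 34.4% at 60–65 μm, became 43.8% at 1 read, 39.2% at 3, 37.6% at 10 and 36.8% from pooled calls, and at 50–55 μm 32.9% became 45.4% at 1 read; leaving out a library gave 33.5 to 35.4% and 29.3 to 36.4%, and 26.1 to 28.6% at 40–45 μm. Cytosines differ between such sets, and 5 of 52 alternatives for single genes moved beyond the Wilson interval. The starts of Obox1, Obox2, Obox3 and Obox6 had under 5 cytosines of 5 reads in PBAT.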
